A study of Rana omeimontis with 12 samples.

Results

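The insulin-like growth factor (IGF) axis of Rana omeimontis tadpoles was followed through 17 of the 56172 assembled transcripts (unigenes) of liver and tail. Members were chosen by the wording of their protein annotation, as IGF I or II, an IGF-binding protein, the IGF1 receptor, the growth hormone receptor or an insulin receptor substrate. The wording took 25 unigenes, and 17 of them reached 1 FPKM (fragments per kilobase of transcript, scaled to the size of the library, a level per length) in 3 or more of the 12 libraries. The other 8 stayed under that minimum. Of these, 7 were described as binding protein 1-like, and the eighth was a further unigene of binding protein 1. The third-highest value was 0.74 FPKM in that unigene, just outside the minimum, and 2.35 FPKM in IGF-binding protein-like 1, the lowest member inside it. No unigene was described as the insulin receptor in the exact wording of the rule. A unigene described as insulin receptor-like, present in both tissues, lay outside that wording.

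Tadpoles at Gosner stages 30 to 31 were kept for 3 days in 10 nM T3, the active thyroid hormone, or in dimethylsulfoxide (DMSO), the vehicle, as the control. RNA of liver and tail was sequenced with 3 libraries for each tissue and treatment. The groups are called control liver, T3 liver, control tail and T3 tail. The T3 groups model a metamorphosis driven by added hormone. Food was offered to both treatments, but the study reports that T3-treated tadpoles ate less and weighed less. Its methods name the unequal feeding as a possible disturbance. Effects of hormone and of lower food intake cannot be told apart here. Pooling of tadpoles and the sharing of an animal by a liver and a tail are not described in the sources at hand, so the spread behind each p-value is that of the samples as sequenced and may be technical in part.

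IGFs are secreted peptides that drive growth and restrain protein breakdown through the IGF1 receptor, a tyrosine kinase that recruits insulin receptor substrates and, through them, the PI3K/AKT and Ras/MAPK cascades. In vertebrates growth hormone acts on its receptor in the liver to raise IGF1, and secreted binding proteins carry IGFs in blood and tissue and set how much reaches the receptor. During amphibian metamorphosis thyroid hormone brings about resorption of the tail. For the liver the study describes a switch of gene expression, mainly in metabolic enzymes and blood proteins, without marked change of form or cells.

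The 17 members carry short names here. GHR-a and GHR-b are the unigenes described as growth hormone receptor. IGF1 is described as IGF I-A-like, and IGF2 as IGF II-B precursor. IGFBP1-a and IGFBP1-b share the description IGF-binding protein 1, and IGFBP2, IGFBP3 and IGFBP4 each have 1 unigene. IGFBPL1 is binding protein-like 1, IGFALS is the acid labile subunit that holds IGF and its binding protein in a large serum complex in mammals, and IGFBP3R-like is described as a receptor of binding protein 3 and is not itself a binding protein. IGF1R is the IGF1 receptor. IRS1, IRS1-B, IRS2-like and IRS4 are insulin receptor substrates. Unigenes with the same description may be pieces of 1 gene or separate copies.

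Libraries of the same tissue and treatment correlated at 0.916 to 0.970 over log2(FPKM + 1), and liver with tail libraries at 0.496 to 0.599. Summed FPKM ran from 773936 to 1029985, and read depth was not used here. Hepatocyte markers held 3.87% to 5.63% of summed FPKM in control livers, 7.72% to 11.1% in T3 livers and 0.00806% to 0.0141% in tails. Skeletal muscle markers held 2.05% to 3.98% in control tails, 1.58% to 2.32% in T3 tails, with overlap, and at most 0.00539% in livers. The hepatocyte list did not move as 1, since its 2 most abundant albumin unigenes were at 1301 to 3021 FPKM in control livers and 14539.7 to 24739 in T3 livers, while apolipoprotein A-I was at 7632 to 11943 and 1771 to 2175, and fibrinogen alpha overlapped. Exocrine pancreas markers held 8.13% and 10.1% in control livers 1 and 2 but only 0.0404% in the third, and T3 livers 1 to 3 had 0.634%, 0.0240% and 0.0441%. Of the 58 pancreas unigenes, 34 to 51 were above 0 in control livers and 32 to 44 in T3 livers. Liver results were therefore also computed without control livers 1 and 2, which leaves 1 control library and assumes that it varies like the T3 livers. Preproinsulin, an islet hormone related to the IGFs, was at 24.28, 52.70 and 0.47 FPKM in control livers and at 90.27, 2.71 and 20.71 in T3 livers. In the tail, keratins, which mark epidermis, held 0.0857% to 0.111% in controls and 0.268% to 0.450% with T3, and hemoglobins held 0.110% to 0.364% and 0.361% to 0.591%. The keratins moved apart, with keratin 12 at 3.39 to 6.36 FPKM in control tails and 1279 to 1377 in T3 tails, and the more abundant keratin 19 unigene at 485 to 737 and 123 to 220. The part of these tissue markers in the results below was not tested except where values without those livers are given.

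Log2(FPKM + 1) was compared with limma within each tissue, between the control tissues, and as the difference between the T3 effect in liver and that in tail. Unigenes that reached 1 FPKM in 3 or more of the compared libraries were tested, and a unigene was called at an adjusted p below 0.05 over all of them. Rose and fell are written of calls alone, and this scale makes differences at low FPKM look smaller than the FPKM ratio does. In bulk samples, fewer cells of a type and less RNA per cell cannot be told apart.

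In the liver 4 of 17 tested members rose and 2 fell, where 3.83% of all 18923 tested unigenes rose and 8.67% fell. In the tail 5 of 13 tested members rose and 2 fell, where 19.2% of all 18429 unigenes rose and 6.23% fell. IGFBP4 was the only member called in both tissues, and it rose in each. The liver and tail effects of T3 were called unequal for 3 members, 2 of them more positive in the liver and 1 more positive in the tail, against 3.48% and 14.3% of 24085 unigenes. Without hormone, 11 of 16 tested members were higher in liver than in tail and 2 were lower, where 25.3% and 21.8% of 19642 unigenes were. Some calls in these counts were fixed by the minimum of 1 FPKM, since the member reached it in the higher group alone. They were IGF1 in liver, IGFBP4 in tail, and IGF2, IGFBP4 and IGFALS between the control tissues, and they lend the counts no support. In the test between tissues IGF1 reached the minimum in T3 libraries alone, so its call there was favoured by the minimum and lends none either.

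The whole distribution shifted with T3, with a median log2 change over all tested unigenes of -0.26 in liver and 0.31 in tail, and the median over the members was 0.04 and 0.36. Scaling the libraries by median ratio removed most of that shift. The share of rises among all calls then went from 30.7% to 59.7% in liver and from 75.5% to 50.1% in tail. Under it the members' calls were 4 rises and 0 falls in liver and 4 rises and 4 falls in tail. Setting library sums equal instead widened the tail shift, to a median of 0.48 with rises at 85.4% of calls. The liver median was then -0.23, with rises at 36.5%. Summed FPKM was 773936 to 829630 in T3 tails and 880361 to 989765 in control tails. Liver falls and tail rises near the threshold therefore depend on the scaling, and the members affected are named below.

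**Figure D1:**
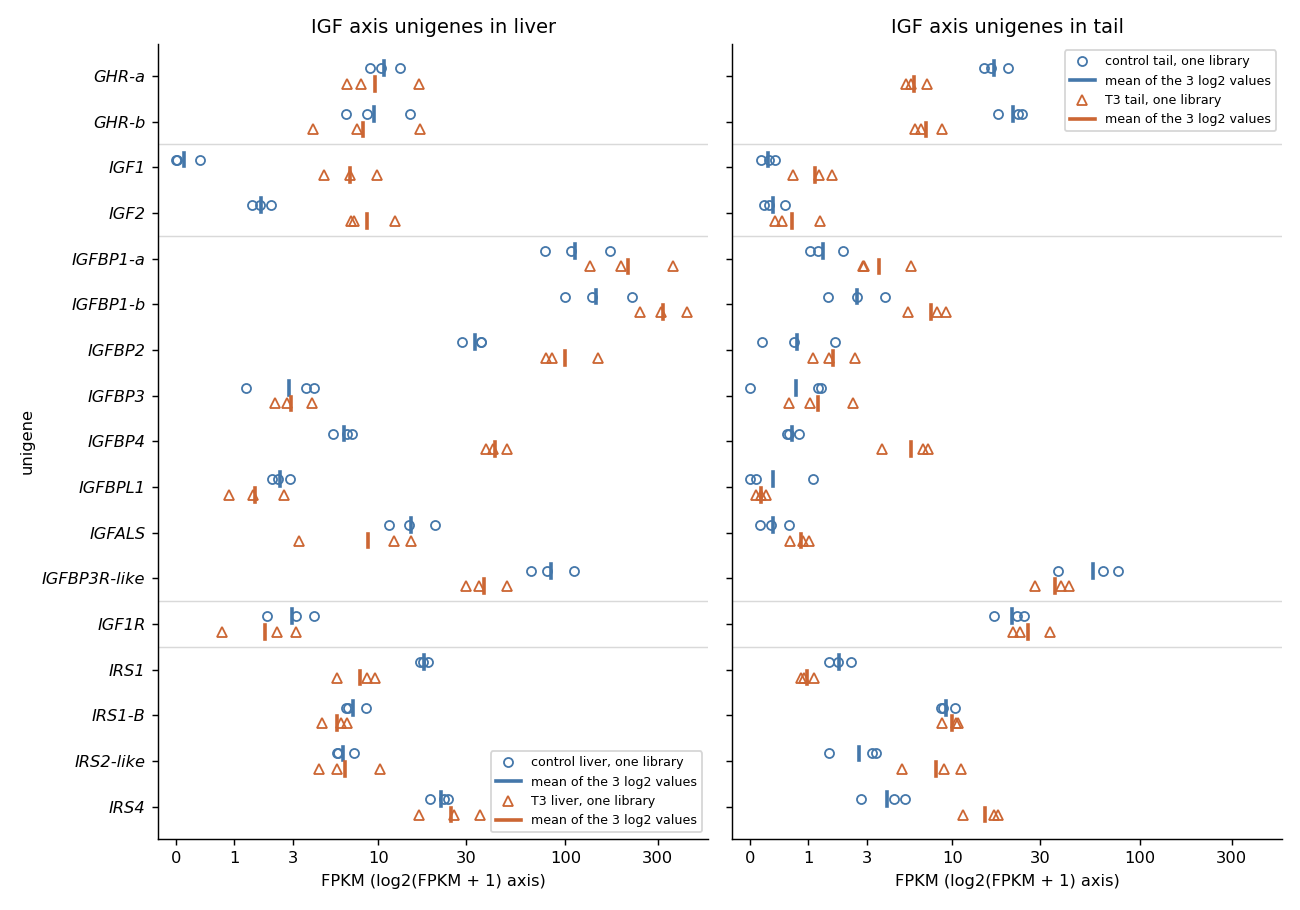
FPKM of the 17 members in each library, on a log2(FPKM + 1) axis, with liver at left and tail at right. Circles are control libraries, triangles T3 libraries and vertical bars the mean of the 3 log2 values. IGF1, IGF2, IGFBP1-b, IGFBP2 and IGFBP4 have T3 livers above every control liver, and GHR-a, GHR-b and IRS1 have T3 tails below every control tail. Of these, IGFBP1-b in liver and IRS1 in tail were not called.

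In the control liver the axis was made up mostly of binding protein transcripts, and in the control tail of IGFBP3R-like and the growth hormone and IGF1 receptors. IGFBP1-b and IGFBP1-a had the highest mean FPKM of the members in control liver, 152 ± 62 and 118 ± 46.5 (SD, n = 3), followed by IGFBP3R-like and IGFBP2. The ranges of these 2 IGFBP1 unigenes and of IGFBP3R-like overlapped between libraries. Within each control liver the order was IGFBP1-b, IGFBP1-a and IGFBP3R-like, which was not tested. All were above IGFBP2 at 33.8 ± 4.35. In control tail IGFBP3R-like led at 59.6 ± 20.1, followed by GHR-b at 21.7 ± 3.28, IGF1R at 21.5 ± 3.96 and GHR-a at 17.2 ± 2.74, and the last 3 overlapped. IGF1 and IGF2 had the lowest mean FPKM of the 17 in both control tissues. In control tail both overlapped other low members, such as IGFALS and IGFBPL1. In control liver IGF2 overlapped IGFBP3 and IGF1R between libraries, although it was under IGF1R within each control liver. The order of these overlapping members was otherwise not resolved.

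Summed over the 5 unigenes of binding proteins 1 to 4, control livers 1 to 3 held 59.7% to 66.1% of the FPKM of all members, and control tails 3.12% to 5.88%. The unigenes of 1 description were added, so a gene assembled in pieces counts more than once. In T3 livers the binding protein share was 78.7% to 87.9%, above every control liver, and in T3 tails 12.3% to 17.5%, above every control tail. Both ligands together held 0.27% to 0.52% in control livers and 1.13% to 3.03% in T3 livers. The growth hormone receptor share of the tail ran from 20.6% to 34.3% in controls and from 8.66% to 11.2% with T3. These shares were not tested. The largest parts of the liver binding protein sum were IGFBP1-a and IGFBP1-b, neither of them called in liver. Mean FPKM of IGFBP1-a was 118 in control and 230 in T3 livers, and that of IGFBP1-b 152 and 327.

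**Figure D2:**
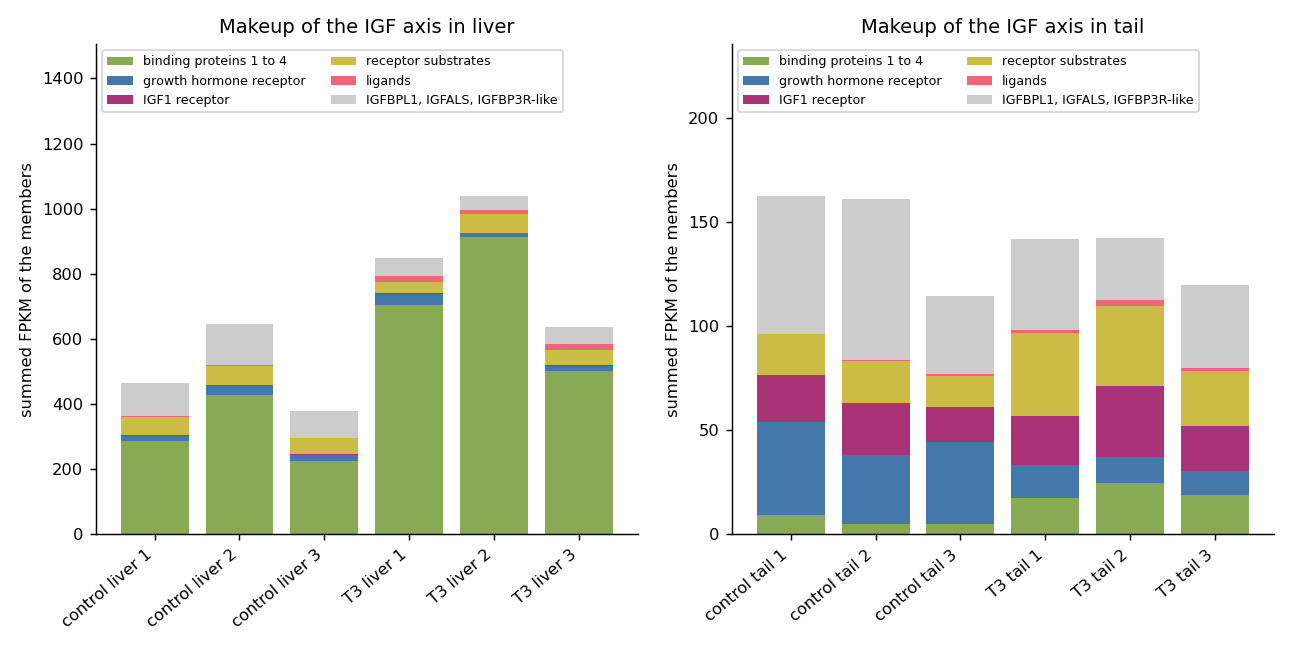
Summed FPKM of the members in each library, stacked by role, with liver at left and tail at right on separate axes that start at 0. Binding proteins 1 to 4 fill most of each liver bar, with 59.7% to 66.1% in controls and 78.7% to 87.9% with T3, and the growth hormone receptor part of the tail bars is smaller in all 3 T3 libraries.

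The growth hormone receptor, through which pituitary growth hormone acts on liver and other tissues, fell in the tail and was not called in the liver. GHR-a was at 20.33, 15.09 and 16.30 FPKM in control tails 1 to 3 and at 7.17, 5.71 and 5.33 in T3 tails 1 to 3. GHR-b was at 24.18, 18.01 and 23.01 in control tails and at 8.72, 6.60 and 6.09 in T3 tails. Every T3 tail was under every control tail for both unigenes, with no overlap. The log2 change was -1.37 for GHR-a (SE 0.249, adjusted p = 0.00331) and -1.49 for GHR-b (SE 0.254, adjusted p = 0.00234). Both calls remained under each alternative tried, with adjusted p from 0.000972 to 0.0199 for GHR-a.

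In the liver GHR-a was at 8.99, 13.23 and 10.37 FPKM in controls and at 16.73, 7.96 and 6.60 with T3. GHR-b was at 6.53, 14.98 and 8.60 in controls and at 17.04, 4.07 and 7.56 with T3. T3 liver 1 was the highest of the 6 livers for both unigenes, and the other T3 livers lay within or under the controls, so the groups overlapped. The log2 change was -0.14 for GHR-a (95% interval -0.94 to 0.66, adjusted p = 0.82) and -0.19 for GHR-b (-1.32 to 0.95, adjusted p = 0.83). With median ratio scaling the sign turned, to 0.16 and 0.10.

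The test of the difference between the tissues did not call either unigene. It gave 1.23 for GHR-a (adjusted p = 0.0594) and 1.30 for GHR-b (adjusted p = 0.123), and with median ratio scaling both passed, at 1.94 (adjusted p = 0.00791) and 2.01 (adjusted p = 0.0317). Leaving out T3 liver 3 also brought GHR-a past the threshold (1.47, adjusted p = 0.0312), and leaving out T3 liver 2 did so for GHR-b (1.73, adjusted p = 0.0378). Without hormone GHR-b was lower in liver than in tail (-1.10, adjusted p = 0.0164), a call lost without control liver 1 (-0.87, adjusted p = 0.0799), without control liver 3 (-1.04, adjusted p = 0.0522) and without control livers 1 and 2 (-1.23, adjusted p = 0.1). GHR-a had -0.63 (adjusted p = 0.0639). The unigenes kept a ratio of GHR-a to GHR-b between 0.708 and 0.875 in the 6 tails and between 0.873 and 1.956 in the 6 livers.

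IGF ligand transcripts rose in the liver. IGF1, the main circulating growth factor under growth hormone control in vertebrates, was at 0.33, 0.02 and 0.00 FPKM in control livers 1 to 3 and at 9.81, 4.82 and 6.89 in T3 livers 1 to 3. No control liver reached 1 FPKM and every T3 liver was above 4. Its log2 change was 2.84 (SE 0.293, 95% interval 2.16 to 3.52, adjusted p = 0.00191). Since the controls were near 0, its size depends on the value added before the log, from 5.34 with 0.1 to 1.23 with 5, and both were called.

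IGF2, the other ligand, which drives fetal growth in mammals, was at 2.09, 1.70 and 1.48 FPKM in control livers and at 7.30, 6.95 and 12.42 in T3 livers. The groups did not overlap, and the log2 change was 1.81 (SE 0.272, 95% interval 1.17 to 2.44, adjusted p = 0.00839). Against control liver 3 alone, the control library with few pancreas transcripts, the changes were as large, 2.99 for IGF1 and 1.95 for IGF2, but with 1 control library neither passed (adjusted p = 0.0733 and 0.169). IGF1 reached the minimum through the T3 livers alone and so had to differ. It remained tested and called without any single control (2.77 to 2.97) but was not tested without a T3 liver. The IGF2 call remained without any single liver library (1.57 to 1.94).

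In the tail both ligands were too low to be tested, since only 2 tail libraries reached 1 FPKM for IGF1 and 1 for IGF2. IGF1 was at 0.25, 0.14 and 0.35 FPKM in control tails and at 0.67, 1.65 and 1.27 in T3 tails, and the groups did not overlap. IGF2 was at 0.18, 0.25 and 0.52 in control tails and at 0.46, 1.31 and 0.35 in T3 tails, and the groups overlapped. The T3 effect was larger in liver than in tail for IGF1, by 2.04 (SE 0.376, adjusted p = 0.00367) and for IGF2, by 1.47 (SE 0.385, adjusted p = 0.0222). That of IGF1 was called in every alternative that tested it. IGF1 reached the minimum in T3 livers and T3 tails 2 and 3 alone. The minimum therefore favoured that call, and its stability is no support. That of IGF2 was lost with 0.1 added before the log (1.39, adjusted p = 0.187), without control livers 1 and 2 (1.61, adjusted p = 0.0927), and without control liver 3, control tail 3, T3 tail 1 or T3 tail 3, where it lay between 1.32 and 1.39 with adjusted p of 0.0517, 0.0528, 0.0557 and 0.0536. Without hormone IGF2 was higher in liver than in tail (1.07, adjusted p = 0.00232), a call fixed by the minimum that only the control livers reached, whereas IGF1 was under 1 FPKM in all 6 control libraries and was not tested.

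A ligand outside the wording, described as IGF III precursor and named after its values were seen, went the other way in the liver. It averaged 18.2 ± 7.55 FPKM in control livers and 4.03 ± 2.89 in T3 livers (n = 3 each), a log2 change of -2.07 (adjusted p = 0.0468). That call was lost under most alternatives, without any single liver library other than T3 liver 3 among them, with -2.63 (adjusted p = 0.230) against control liver 3 alone, and the unigene was at or near 0 in the tail.

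Among the binding proteins IGFBP4, which in mammals mainly holds IGFs away from their receptor, rose in both tissues. It was at 6.58, 5.44 and 7.02 FPKM in control livers and at 49.51, 38.25 and 41.76 in T3 livers. In the tail it was at 0.56, 0.79 and 0.59 in controls and at 3.80, 6.80 and 7.25 with T3. The groups were far apart in both tissues, with mean FPKM 6.80-fold higher in liver and 9.20-fold higher in tail.

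IGFBP4 had the smallest p of the members in each tissue. Its log2 change was 2.59 in liver (SE 0.205, adjusted p = 0.000758) and 2.04 in tail (SE 0.278, adjusted p = 0.000635), and the test between tissues did not call a difference (0.55, 95% interval -0.18 to 1.27, adjusted p = 0.264). In the tail only the T3 libraries reached the minimum of 1 FPKM, so a tested IGFBP4 had to differ there. The liver call remained without any single library, and the tail call without any single control, while without a T3 tail the unigene was no longer tested. Against control liver 3 alone the change was 2.45 (adjusted p = 0.0565). Without hormone IGFBP4 was higher in liver than in tail by 2.15 (adjusted p = 4.91e-05), where again only the livers reached the minimum.

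IGFBP2, which in mammals binds IGF2 more tightly than IGF1, rose in the liver. It was at 36.28, 28.78 and 36.35 FPKM in control livers and at 147.42, 84.72 and 78.77 in T3 livers. The groups did not overlap, and T3 liver 1 stood above the other T3 livers. The log2 change was 1.54 (SE 0.273, adjusted p = 0.0153), a call lost without control liver 2 (1.43, adjusted p = 0.0607), without control liver 3 (1.59, adjusted p = 0.0529) and against control liver 3 alone (1.43, adjusted p = 0.250). In the tail it was at 1.75, 0.16 and 0.69 in controls and at 1.56, 2.49 and 1.12 with T3, with overlap and no call (0.60, adjusted p = 0.22). The test between tissues called no difference (liver minus tail 0.93, adjusted p = 0.178).

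IGFBP1, a binding protein that in mammals is made by hepatocytes and rises when insulin is low, rose in the tail. IGFBP1-b was at 3.98, 1.51 and 2.58 FPKM in control tails and at 8.21, 9.25 and 5.51 in T3 tails. IGFBP1-a was at 2.00, 1.23 and 1.03 in control tails and at 2.86, 5.71 and 2.84 in T3 tails. The T3 tails lay above every control tail for both. The log2 changes were 1.26 (SE 0.312, adjusted p = 0.0146) and 0.96 (SE 0.301, adjusted p = 0.0396).

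These tail calls rest on few libraries. That of IGFBP1-b was lost without control tail 2 (1.01, adjusted p = 0.0575) and without T3 tail 2 (1.12, adjusted p = 0.0669). That of IGFBP1-a was not past the threshold once libraries were scaled by median ratio (0.69, adjusted p = 0.0589), nor without control tail 2 or 3 (adjusted p = 0.0954 and 0.103) and without T3 tail 1 or 2 (adjusted p = 0.0562 and 0.178), with changes from 0.69 to 1.09.

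In the liver IGFBP1-b was at 137.20, 220.48 and 99.28 FPKM in controls and at 311.32, 425.93 and 242.92 with T3, and every T3 liver was above every control liver. IGFBP1-a was at 106.51, 169.49 and 78.65 in controls and at 194.20, 360.59 and 134.33 with T3, with T3 liver 3 under control liver 2. Neither was called. The log2 change was 1.14 for IGFBP1-b (95% interval 0.37 to 1.90, adjusted p = 0.0619) and 0.90 for IGFBP1-a (-0.05 to 1.85, adjusted p = 0.184). These were close to the tail changes, and the test between tissues called no difference. Liver minus tail was -0.12 for IGFBP1-b (adjusted p = 0.876) and -0.05 for IGFBP1-a (adjusted p = 0.953). Control liver 3 was the lowest control for both, and against it alone the changes were 1.67 and 1.41.

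IGFBP1 set the liver apart from the tail more than any other member without hormone. The difference between control liver and control tail was 5.57 for IGFBP1-a (SE 0.319, adjusted p = 9.4e-07) and 5.36 for IGFBP1-b (SE 0.358, adjusted p = 2.72e-06), and IGFBP2 followed on that scale at 4.30 (SE 0.329, adjusted p = 6.9e-06). In FPKM the mean of control liver was 83.3 times that of control tail for IGFBP1-a, 56.6 times for IGFBP1-b, 46.5 times for IGFALS and 39.0 times for IGFBP2. The ratio of IGFBP1-b to IGFBP1-a was above 1 in all 12 libraries, from 1.181 to 2.871.

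IGFBP3, in mammals the main serum carrier of IGFs, stayed low in every group. It was at 1.31, 3.68 and 4.15 FPKM in control livers and at 2.24, 2.72 and 4.04 in T3 livers, with overlap (log2 change 0.04, 95% interval -0.79 to 0.88, adjusted p = 0.952). In the tail it was at 1.25, 1.33 and 0.00 in controls and at 1.04, 0.60 and 2.40 with T3, again with overlap (0.36, adjusted p = 0.522). Its excess in control liver over control tail, 1.14 (adjusted p = 0.047), was lost without any 1 of control livers 2 and 3 and control tails 1 and 3 (0.74 to 1.32, adjusted p from 0.0533 to 0.150), and with 0.1 added before the log (2.29, adjusted p = 0.102).

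IGFALS and IGFBPL1 were liver transcripts without a T3 call. IGFALS was at 20.57, 14.81 and 11.54 FPKM in control livers and at 3.31, 12.23 and 15.17 in T3 livers, where T3 liver 1 alone lay under the controls (log2 change -0.74, 95% interval -1.89 to 0.41, adjusted p = 0.362). IGFBPL1, a secreted protein related to the binding proteins in sequence, was at 2.11, 2.35 and 2.87 in control livers and at 1.49, 0.88 and 2.61 in T3 livers, with overlap (-0.42, adjusted p = 0.381). In the tail IGFALS was at 0.59, 0.29 and 0.13 in controls and at 0.88, 1.01 and 0.61 with T3, and IGFBPL1 at 1.12, 0.07 and 0.00 and at 0.07, 0.14 and 0.21.

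Both were too low in the tail to be tested there. Control liver was above control tail by 3.62 for IGFALS (SE 0.277, adjusted p = 6.98e-06) and by 1.38 for IGFBPL1 (SE 0.304, adjusted p = 0.00478). No control tail reached 1 FPKM for IGFALS, so once tested it had to differ. IGFBP3R-like, by contrast, was high in both tissues. It was at 80.15, 110.90 and 66.33 FPKM in control livers and at 49.78, 30.27 and 35.27 in T3 livers, and at 64.17, 76.95 and 37.55 in control tails and 42.79, 28.29 and 39.04 in T3 tails.

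IGFBP3R-like fell in the liver, where the groups did not overlap (log2 change -1.14, SE 0.27, adjusted p = 0.0361), and was not called in the tail, where control tail 3 lay among the T3 tails (-0.64, adjusted p = 0.148). The liver call was lost under both median ratio scaling and quantile normalization (-0.81 and -0.89, adjusted p = 0.0935 and 0.0735), without control livers 1, 2 or 3 or T3 livers 2 or 3 in turn (adjusted p from 0.0659 to 0.118), and against control liver 3 alone (-0.80, adjusted p = 0.444). In the tail it became a fall under those 2 scalings (-1.03 and -0.93, adjusted p = 0.0236 and 0.035) and without control tail 3 (-0.94, adjusted p = 0.0312). The test between tissues called no difference (liver minus tail -0.49, adjusted p = 0.429).

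**Figure D3:**
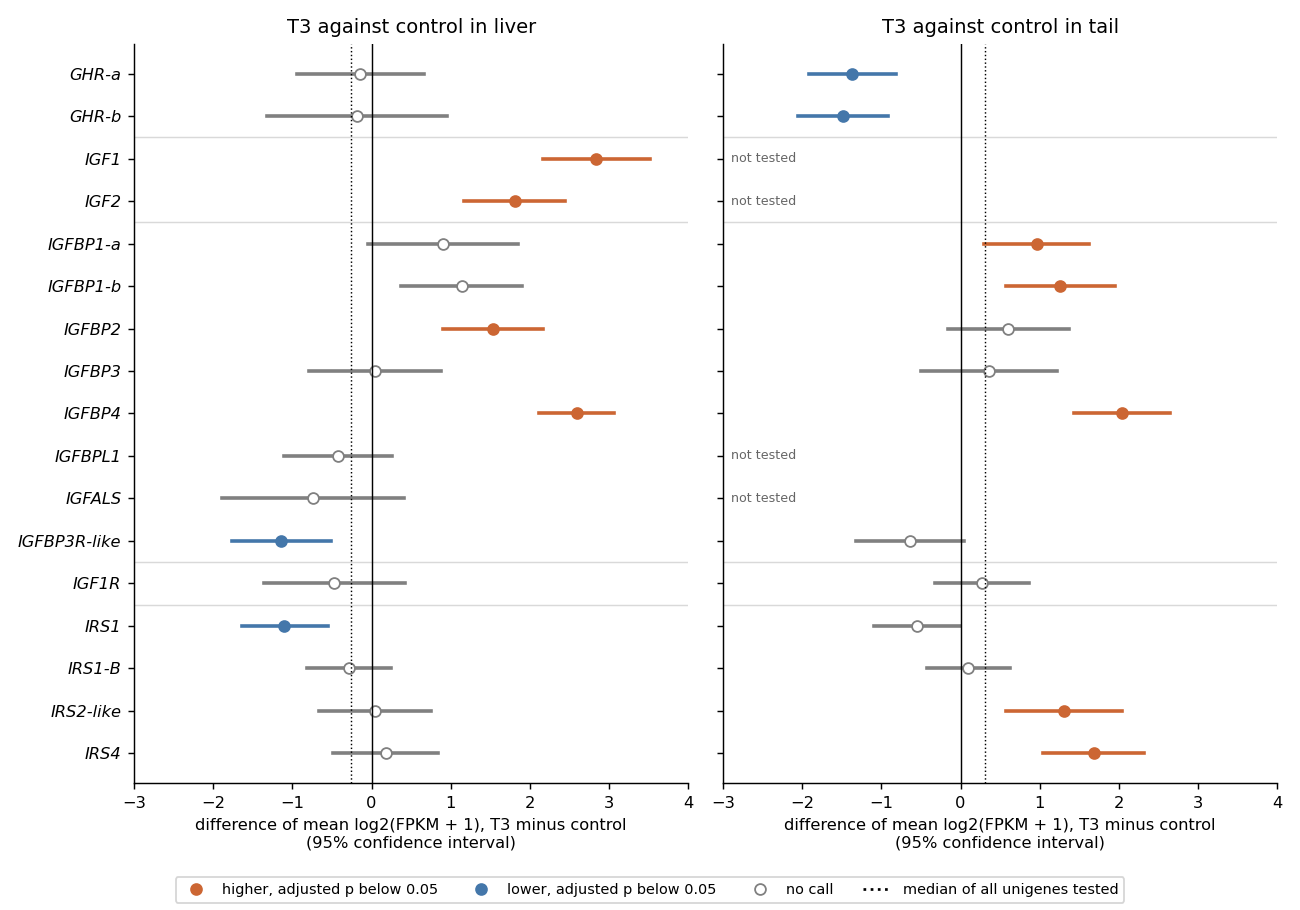
T3 minus control in mean log2(FPKM + 1), with 95% confidence intervals, for each member in liver (left) and tail (right). Filled points are called at an adjusted p below 0.05, open points are not, and the dotted line is the median over all tested unigenes, -0.26 in liver and 0.31 in tail. IGF1, IGFBP4 and IGF2 lie farthest to the right in liver, and IGFBP4 does so in tail, where GHR-a and GHR-b lie farthest to the left.

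The IGF1 receptor, which both ligands use, was a tail transcript and was not called after T3. It was at 22.69, 24.75 and 17.10 FPKM in control tails and at 23.55, 34.14 and 21.62 in T3 tails. In the liver it was at 3.14, 4.13 and 1.96 in controls and at 2.31, 0.72 and 3.15 with T3. The groups overlapped in both tissues. The insulin receptor-like unigene outside the rule averaged 2.71 FPKM in control liver, 2.34 in T3 liver, 3.93 in control tail and 6.74 in T3 tail. It was not called in any comparison.

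The log2 change of IGF1R was 0.27 in tail (95% interval -0.32 to 0.87, adjusted p = 0.481) and -0.47 in liver (-1.36 to 0.42, adjusted p = 0.45). In the tail its sign turned with median ratio scaling (-0.11) and quantile normalization (-0.04). Without hormone it was lower in liver than in tail (log2 difference -2.49, SE 0.281, adjusted p = 9.57e-05). Mean FPKM in control tail was 6.99 times that in control liver. Together with GHR-b it was 1 of only 2 members called lower in control liver than in control tail.

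**Figure D4:**
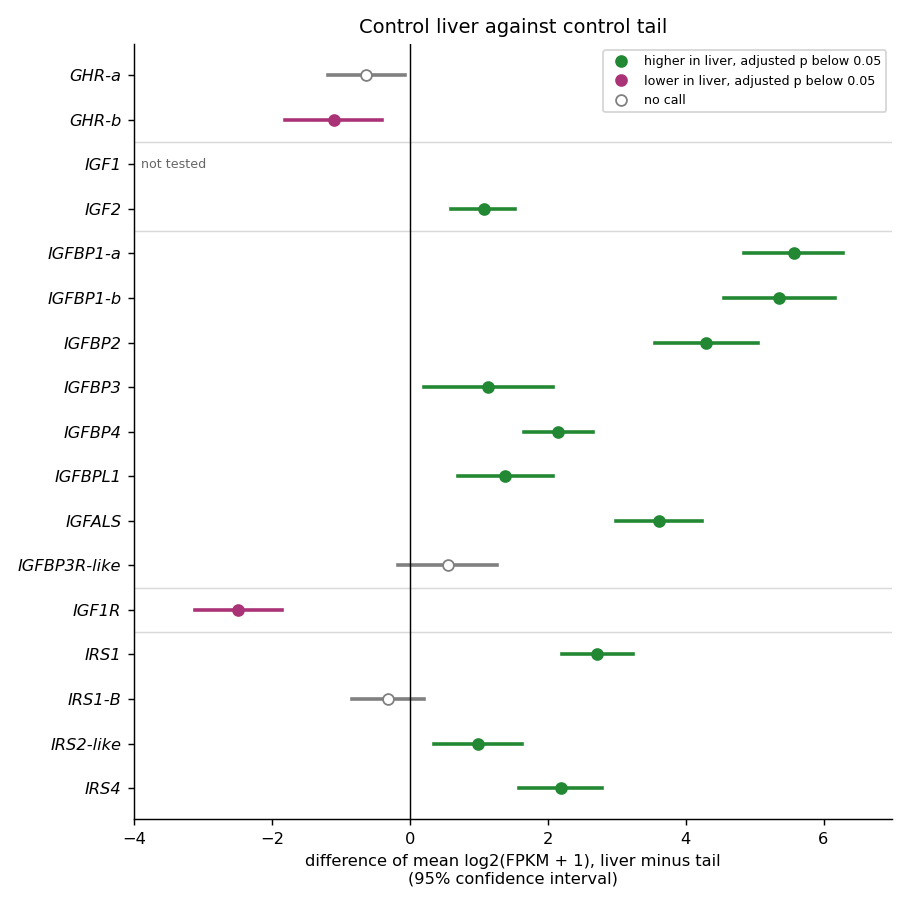
Control liver minus control tail in mean log2(FPKM + 1), with 95% confidence intervals, for the 16 members tested. Filled points are called at an adjusted p below 0.05. IGFBP1-a and IGFBP1-b lie farthest to the liver side at 5.57 and 5.36, and IGF1R and GHR-b are the called members on the tail side, at -2.49 and -1.10.

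Insulin receptor substrates are docking proteins that pass the signal of the IGF1 and insulin receptors on. The 4 unigenes took different directions. IRS1 was at 17.09, 18.95 and 17.61 FPKM in control livers and at 9.57, 5.73 and 8.67 in T3 livers. Every T3 liver was under every control liver, and IRS1 fell (log2 change -1.10, SE 0.234, adjusted p = 0.0264).

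The IRS1 call was lost after scaling by median ratio (-0.79, adjusted p = 0.0511), without the filter on low values (adjusted p = 0.0616), without control livers 1, 2 or 3 in turn (-1.06 to -1.13, adjusted p = 0.0834, 0.0965 and 0.0953) and against control liver 3 alone (-1.08, adjusted p = 0.355). In the tail it was at 1.54, 2.30 and 1.83 in controls and at 1.15, 0.91 and 0.84 with T3. The tail groups did not overlap, yet IRS1 was not called there (-0.55, adjusted p = 0.124). Median ratio scaling and quantile normalization each made it a fall (-0.78 and -0.85, adjusted p = 0.0373 and 0.0298). The test between tissues called no difference for IRS1 (liver minus tail -0.55, adjusted p = 0.231).

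IRS4 and IRS2-like rose in the tail. IRS4 was at 5.31, 4.52 and 2.73 FPKM in control tails and at 17.08, 17.85 and 11.53 in T3 tails. IRS2-like was at 3.47, 3.26 and 1.54 in control tails and at 11.18, 8.94 and 5.10 in T3 tails. Neither overlapped, and in both unigenes control tail 3 was the lowest control and T3 tail 3 the lowest T3 tail.

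The log2 change was 1.68 for IRS4 (SE 0.29, adjusted p = 0.00248), a call that remained under each alternative. It was 1.31 for IRS2-like (SE 0.332, adjusted p = 0.0163), a call lost without the filter on low values (adjusted p = 0.0543), without control tail 3 (1.05, adjusted p = 0.0515), without T3 tail 1 (1.10, adjusted p = 0.0649) and without T3 tail 2 (1.24, adjusted p = 0.0606). In the liver IRS4 was at 22.91, 24.16 and 19.34 in controls and at 16.88, 35.71 and 26.04 with T3. IRS2-like was at 5.75, 7.25 and 5.81 in controls and at 4.43, 10.27 and 5.72 with T3. T3 liver 2 was the highest liver and T3 liver 1 the lowest for both, so the groups overlapped (log2 changes 0.18 and 0.04, adjusted p = 0.716 and 0.948).

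The T3 effect on IRS4 was larger in tail than in liver (liver minus tail -1.50, SE 0.412, adjusted p = 0.0269), while that on IRS2-like was not called (-1.27, adjusted p = 0.0789). The IRS4 difference was lost under both of those scalings (-0.73 and -0.87, adjusted p = 0.302 and 0.174), without the filter (adjusted p = 0.054), without control livers 1 and 2 (-1.32, adjusted p = 0.173), and without control liver 1 or 2, control tail 3, or T3 tail 1 or 2 (-1.28 to -1.47, adjusted p from 0.0567 to 0.075). IRS2-like passed without T3 liver 2 (-1.57, adjusted p = 0.0376) and without T3 tail 3 (-1.56, adjusted p = 0.0471). Without hormone IRS1, IRS4 and IRS2-like were higher in liver than in tail, by 2.72 (adjusted p = 1.26e-05), 2.19 (adjusted p = 0.000157) and 0.99 (adjusted p = 0.0172). The last was lost without control liver 2 (0.90, adjusted p = 0.0684) and without control livers 1 and 2 (0.90, adjusted p = 0.228).

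IRS1-B, named after a Xenopus form of IRS1, was the 1 member with no call in any comparison. It was at 8.56, 6.66 and 6.49 FPKM in control livers and at 4.68, 6.60 and 6.12 in T3 livers. In the tail it was at 8.90, 10.31 and 8.60 in controls and at 10.46, 10.71 and 8.76 with T3. The values of all 12 libraries lay between 4.68 and 10.71. The ratio of IRS1 to IRS1-B was 1.996 to 2.845 in control livers, 0.868 to 2.045 in T3 livers, 0.173 to 0.223 in control tails and 0.085 to 0.110 in T3 tails, so IRS1 led in control livers and IRS1-B in every tail.

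Other genes of the pathway, in 6 lists set by annotation wording with the members left out, were followed in the same fits, to be read against the 3.83% of all tested unigenes that rose and 8.67% that fell in liver and the 19.2% and 6.23% in tail. Of the growth hormone and prolactin signalling list, 0 of 7 tested unigenes rose and 2 fell in liver, and 1 of 8 rose and 1 fell in tail. The median log2 change was -1.10 in liver, against -0.26 over all unigenes. It was the value of a unigene described as prolactin regulatory element binding. The list was taken by wording and holds feedback inhibitors beside the kinase JAK2, so its median is no measure of the signal. SOCS1, a feedback inhibitor of cytokine receptor signalling, fell in liver (-1.94, adjusted p = 0.0182) and in tail (-1.87, adjusted p = 0.00495). SOCS3, of the same family, had 2 tested unigenes. The more abundant was at 27.5 ± 3.69 FPKM in control livers and 10.5 ± 7.59 in T3 livers (n = 3 each) and was not called (-1.53, adjusted p = 0.0713). The other, at 1.26 to 2.71 and 0.26 to 0.54 FPKM, reached the minimum in the controls alone and so had to differ (-1.18, adjusted p = 0.0332), a call lost after scaling by median ratio (adjusted p = 0.0647), without T3 liver 1 (adjusted p = 0.0713) and without T3 liver 3 (adjusted p = 0.072). The liver call of SOCS1 was lost without control liver 2 (adjusted p = 0.0522) and without control liver 3 (adjusted p = 0.056). The prolactin receptor, a relative of the growth hormone receptor, went from 2.77 ± 1.18 to 13.5 ± 4.98 FPKM (n = 3 each) and rose in tail (1.93, adjusted p = 0.00314).

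Of the list of IGF carriers, proteases and clearance, 2 of 3 tested unigenes rose and 1 fell in liver, with a median of 0.73, and 2 of 6 rose and 0 fell in tail, with a median of 0.56. HTRA1, a secreted serine protease that can cut binding proteins in mammals, rose from 4.07 ± 1.68 to 45.4 ± 9.31 FPKM in tail (3.23, adjusted p = 4.03e-05) and in liver (1.80, adjusted p = 0.00812), where only T3 livers reached the minimum and a tested HTRA1 had to differ. Stanniocalcin 2, which in mammals inhibits the protease that cuts IGFBP4, rose in tail (1.86, adjusted p = 0.00373). The cation-independent mannose-6-phosphate receptor, a lysosomal sorting receptor that in placental mammals also clears IGF2, fell in liver (-1.27, adjusted p = 0.0164), and insulin-degrading enzyme rose there (0.73, adjusted p = 0.0452). These liver calls were lost without control liver 2 (adjusted p = 0.0694 and 0.131), without control liver 3 (adjusted p = 0.0621 and 0.152), and that of insulin-degrading enzyme without any other single liver library as well.

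Downstream of the receptors few list members were called for T3 within a tissue. In the test between tissues, 2 of 14 unigenes were called in each of the next 2 lists, all more positive in tail. Over all unigenes 3.48% were more positive in liver and 14.3% in tail. Of the PI3K, AKT and mTOR list, 1 of 12 unigenes rose in liver and 1 of 14 in tail, and 0 fell in either, with medians of -0.20 and 0.34, near those of all unigenes. That unigene was the PI3K regulatory subunit alpha, which docks on the receptor substrates, at 5.30 ± 0.282 FPKM in control livers and 20.0 ± 0.353 in T3 livers (1.74, adjusted p = 0.00218) and with a rise in tail (1.05, adjusted p = 0.014) that was lost without T3 tail 1 (adjusted p = 0.0523) or T3 tail 2 (adjusted p = 0.0556). Of the Ras and MAPK adaptors, 0 of 13 were called in liver by limma, where 4 had an unadjusted p below 0.05, 2 passed when each unigene was tested alone without adjustment, and 2 were called without T3 liver 3. In tail 3 of 13 rose, a share near the 19.2% of all unigenes, and the medians were -0.25 and 0.62. The 3 were GRB2, an adaptor between receptors and Ras (1.04, adjusted p = 0.012), GRB10 (1.79, adjusted p = 0.00543) and GRB7 (1.46, adjusted p = 0.00386), and the GRB2 call was lost without T3 tail 2 (adjusted p = 0.0607).

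Of the inhibitors of the insulin and IGF signal, 1 of 5 unigenes rose and 1 fell in liver, and 4 of 7 rose and 0 fell in tail, with medians of 0.03 and 1.24. The list was taken by wording, and not all of its unigenes, such as tribbles 1, need inhibit that signal, so its median is no measure of it. DDIT4, an inhibitor of mTOR complex 1 that stress induces, rose in liver (2.27, adjusted p = 0.038) and in tail (1.52, adjusted p = 0.0185), with T3 means of 80.3 ± 55.4 and 266 ± 167 FPKM. In tail the others were DDIT4-like (1.24, adjusted p = 0.0322), the pseudokinase tribbles 1 (1.47, adjusted p = 0.00302) and GRB10, which binds and restrains insulin and IGF receptors in mice and belongs to both this list and the adaptors. PTPN1, a phosphatase of the insulin receptor, fell in liver (-0.89, adjusted p = 0.0234), a call lost with median ratio scaling (-0.57, adjusted p = 0.103) and without control livers 1, 2 or 3 or T3 liver 3 (adjusted p from 0.0539 to 0.0977). Both tail calls of DDIT4 and DDIT4-like were lost with median ratio scaling (adjusted p = 0.0666 and 0.0547), and without control tail 3 (adjusted p = 0.0569 and 0.0993) or T3 tail 2 (adjusted p = 0.0679 and 0.137), and that of DDIT4-like also without control tail 2 or T3 tail 1 (adjusted p = 0.0711 and 0.0763). The liver call of DDIT4 was lost without each single liver library other than T3 liver 3 (1.75 to 2.56, adjusted p from 0.0655 to 0.127).

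The list of FOXO factors and their targets joins FOXO factors, some of which insulin and IGF signals hold out of the nucleus, with glucose-producing enzymes. The enzymes were taken by wording, and not all need be FOXO targets. The list had 6 of 13 unigenes higher and 0 lower in liver, with a median of 0.99. In tail 3 of 9 were higher and 1 lower, with a median of 0.75. All 6 liver rises were phosphoenolpyruvate carboxykinase unigenes, enzymes of gluconeogenesis. Several may be pieces of 1 gene, and the study itself drew on this enzyme in these libraries, so the count is not independent evidence. The largest in FPKM went from 408 ± 89 to 2430 ± 871 (2.52, adjusted p = 0.00345). The least abundant, at 3.69 ± 0.895 FPKM in control livers (1.32, adjusted p = 0.0456), lost its call without any single liver library (adjusted p from 0.0526 to 0.151). Another, at 244 ± 73.6 FPKM in control livers, lost it without control liver 1 or 2 (adjusted p = 0.061 and 0.0621). The mitochondrial form rose in liver (1.93, adjusted p = 0.00555) and fell in tail (-1.08, adjusted p = 0.0228). FOXO6 rose in tail (2.04, adjusted p = 0.000844), where only T3 tails reached the minimum and it had to differ. No unigene of glucose-6-phosphatase, which releases glucose from its phosphate, was called in liver. Its most abundant unigene, described as catalytic 2, was at 1290 ± 250 FPKM in control livers and 1920 ± 1190 in T3 livers (0.42, adjusted p = 0.527). FOXO1 was not called in liver either (0.30, adjusted p = 0.701). Glucose-6-phosphatase rose in tail in the unigene of form 3 (1.19, adjusted p = 0.0101) and in that catalytic 2 unigene (1.62, adjusted p = 0.0336). The latter call was lost under both median ratio scaling and quantile normalization (adjusted p = 0.0828 and 0.0937), without the filter (adjusted p = 0.108) and without control tail 1 or 3 or T3 tail 1 or 2 (adjusted p = 0.0596, 0.0933, 0.0917 and 0.122). The mitochondrial tail call was lost without control tail 3, T3 tail 1 or T3 tail 2 (adjusted p = 0.0547, 0.0632 and 0.121). Against control liver 3 alone the changes of the 6 were 1.60 to 2.18, with adjusted p from 0.0992 to 0.282, and those of HTRA1, PI3K regulatory subunit alpha and SOCS1 were 1.83, 1.80 and -2.60 (adjusted p = 0.165, 0.118 and 0.0874).

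**Figure D5:**
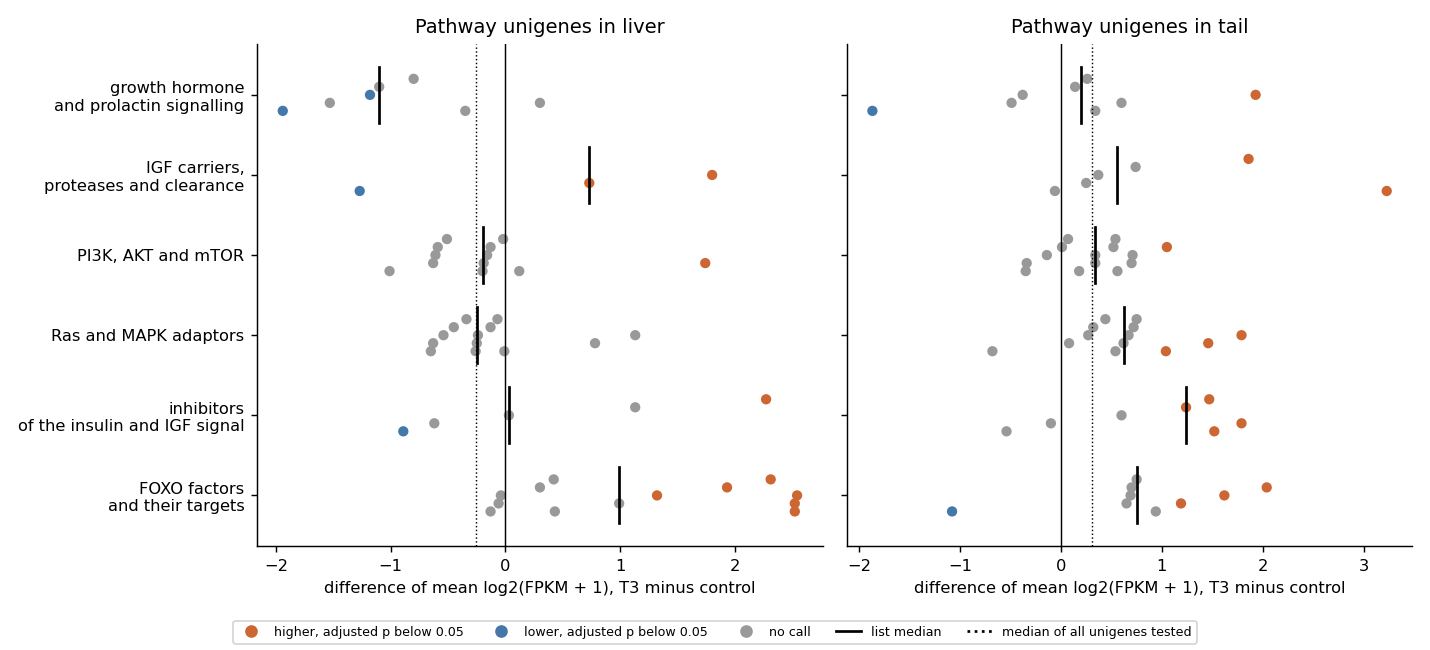
T3 minus control in mean log2(FPKM + 1) for each tested unigene of the 6 pathway lists, in liver (left) and tail (right). Coloured points are called at an adjusted p below 0.05, black bars are list medians, and the dotted line is the median over all tested unigenes. The liver median is lowest at -1.10 for growth hormone and prolactin signalling, a list that includes feedback inhibitors. It is highest at 0.99 for FOXO factors and their targets, and the tail median is highest for the inhibitors at 1.24.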

How the data were processed

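Libraries of liver and tail from T3-treated and control tadpoles were analysed, 3 for each group. The authors assembled all clean reads with Trinity, annotated the unigenes against the NR protein database and calculated the deposited FPKM values for each sample with Bowtie and RSEM. Versions: not given in the sources used here. No reads were mapped again, no genome was used, and read depth was not used, so no counting interval is given. All 12 columns were matched to samples by label, none was left over and none was identical to another.

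Unigenes that reached 1 FPKM in 3 or more of the compared libraries were fitted with limma 3.58.1 in R 4.3.3 on log2(FPKM + 1) with a variance trend, and p was adjusted by the Benjamini-Hochberg method. FPKM is relative to each library, so a few abundant transcripts move all others. The difference between tissues used all 12 libraries, the other comparisons only their 6. The members, the named genes and the pathway and marker lists were chosen with earlier results of these data known. Every member is accounted for, with values in each library for called members and for the most abundant unigene of each description. Of pathway unigenes, those called for T3 against control within liver or within tail are named, and calls between tissues are not. From the pancreas list antitrypsins and neutrophil proteins were dropped by wording after annotations were seen. The fit was tested on simulated data. Alternatives changed the value added before the log (0.1 or 5), the filter, the scaling, the variance trend, the block and the test, and left out libraries. Tables and figures were made with Python 3.11.15.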

Additional observations from a re-analysis of the deposited data

Results flagged for a closer look

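The T3 effect differed between liver and tail for 3 members in the test of the difference itself with limma. For IGF1 the effect was more positive in liver by 2.04 on the log2 scale (adjusted p = 0.00367), and its 3 T3 livers stood above all control livers as its 3 T3 tails stood above all control tails. For IGF2 it was more positive in liver by 1.47 (adjusted p = 0.0222), while its tail groups overlapped. Neither ligand was tested within the tail, and IGF1 reached the minimum in T3 libraries alone, so its call was favoured by that minimum. The IGF2 call was lost with 0.1 added before the log (adjusted p = 0.187) and in 5 fits without 1 or 2 libraries (adjusted p from 0.0517 to 0.0927). For IRS4 the effect was more positive in tail, with liver minus tail at -1.50 (adjusted p = 0.0269), while its liver groups overlapped. Scaling by median ratio or quantile took that call away (adjusted p = 0.302 and 0.174), and so did the fit without the filter (adjusted p = 0.054) and 6 fits without 1 or 2 libraries (adjusted p from 0.0567 to 0.173).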

How the results depend on the processing

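IGF1 in liver and IGFBP4 in tail reached the minimum in T3 libraries alone, so they had to differ and their stability is no support. GHR-a, GHR-b and IRS4 in tail kept their calls under every alternative that tested them. So did IGF2 and IGFBP4 in liver, with 1 exception. These liver calls, and that of IGF1, were lost without control livers 1 and 2. In that fit the change was -1.08 for IRS1 and -0.80 for IGFBP3R-like. Neither was among the members counted next at an unadjusted p below 0.05, so these are not the same as the liver members called in the main fit. Without those livers, 0 of the 6 liver members were called by limma, 6 members had an unadjusted p below 0.05, and no other test was run there; over all unigenes 127 calls stood in place of 2365. The difference between tissues then gave 1168 calls in place of 4279 and 1 member in place of 3, and the control tissues gave 3864 in place of 9245 and 6 members in place of 13, with 11 members tested in place of 16. Without a filter 1069, 2750 and 2722 unigenes were called in liver, in tail (4688 with it) and between tissues. With 1 FPKM asked of every library, 2640 were called between tissues and 4060 between control tissues, with 7 members among them of 10 tested. The single-gene test gave 5006 in liver at an unadjusted p below 0.05. The members called for the difference between tissues were 6 with 5 added before the log and 6 with median ratio scaling. The share of more positive effects in liver among all its calls went from 19.6% to 59.4% with that scaling and to 50.5% with quantile normalization.

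Leaving out 1 library at a time gave 637 to 1687 calls in liver with 3 to 5 members, 2231 to 5833 in tail with 3 to 7 members, 2149 to 5591 between tissues with 1 to 5 members, and 5652 to 7681 between control tissues with 8 to 13 members. Signs turned only for changes without a call. In liver, GHR-a became 0.16 and 0.08, GHR-b 0.10 and 0.02 with median ratio scaling and quantile normalization, IRS1-B 0.01 with the first, and IGFBP3 -0.39 without control livers 1 and 2. In tail, IGF1R became -0.11 and -0.04 and IRS1-B -0.27 and -0.30. With 1 library left out, the liver change ran from -0.51 to 0.10 for GHR-a, from -0.67 to 0.24 for GHR-b, from -0.32 to 0.26 for IGFBP3, from -0.26 to 0.27 for IRS2-like and from -0.07 to 0.45 for IRS4, and the tail change of IGFBP3 from -0.04 to 0.60. The cause was not tested.

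The labels give the groups the same replicate numbers, but no source at hand states that a number joins samples. Deviations of same-numbered control and T3 samples correlated at 0.238, 0.072 and 0.149 in liver and 0.048, 0.032 and 0.073 in tail. Those of same-numbered liver and tail samples correlated at 0.095, 0.19 and 0.085 in controls and 0.088, -0.066 and 0.191 with T3. These values cannot settle whether a liver and a tail share an animal. The main fits treat a shared number as no pairing. With a replicate block, 6 members rose and 1 fell in liver, where IGFBP1-a (adjusted p = 0.0304) and IGFBP1-b (adjusted p = 0.0176) were called and IGFBP3R-like was not (adjusted p = 0.0523), and the member counts of the other comparisons were as without it. The minimum of 1 FPKM kept low members, such as both ligands in tail, out of the main tests. Without the filter all 17 members were tested in tail, where 3 rose and 2 fell and neither ligand was called.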
